A study of Rattus norvegicus with 1 sample.

Results

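Chromosome 12 of the rat was described in 1 library of control DNA, in 468 bins of 100 kb that ran from position 1 of rn4 to the last aligned tag at 46781842. These were 468 of 27197 such bins on the 20 autosomes and X. The chromosome was chosen by a high tag density in this same library that was low for its share of repeated tags. A departure from the common relation of these measures was thus fixed by the choice, and both measures are described with no test. The DNA was that of the rat thyroid follicular line PCCl3, grown with thyrotropin and other hormones and fixed with formaldehyde. It was labelled as input DNA with no antibody, taken before the Pax8 immunoprecipitation, and it had neither a replicate nor a second group.

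In a library of this kind no protein has been selected, and each aligned tag marks an end of a sonicated fragment. A fragment that is copied in PCR before sequencing can give several tags with the same 5′ end and strand. Here a distinct tag is 1 tag per 5′ end and strand, and a repeated tag is any further tag at that place. Density is the number of distinct tags per bin, and the repeated share is the percentage of all tags that are repeated. Since a control of this kind sets the background against which peaks are called, uneven density in it bears on how binding sites are found. Rat chromosome 12 is a small autosome that carries a cluster of ribosomal RNA genes. In the RefSeq annotation of GRCr8, a later build, it carries among others Insr, the insulin receptor, Brca2, a DNA repair gene, Flt1, a receptor for vascular growth factors, and Eln, the gene of elastin. The positions of these genes in rn4 were not used here, and no sequence of this build was analysed.

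The library held 6714002 tags, and 180203 of them lay on chromosome 12 (Poisson 95% interval 179372 to 181037), or 2.68% of the total. They fell on 154049 distinct places (153281 to 154820), with 77064 on the plus and 76985 on the minus strand. The remaining 26154 tags were repeated. All intervals cover counting error only, because reads amplified without molecular identifiers are not independent molecules.

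Chromosome 12 was dense along most of its length, and its repeated share was the highest of the 20 autosomes. The median of its 444 retained bins was 321.5 distinct tags, or 1.71 times the autosomal median of 188. Retained bins were those with at least 43 distinct tags, 25% of the genome-wide median of 171. The quartiles were 216 and 453 tags, while those of the 24199 retained bins on the other 19 autosomes were 118 and 304. Chromosome 10 alone was denser, at 1.86 times the median, and chromosomes 19 and 1 followed at 1.39 and 1.197. Of the 444 bins, 263 held at least 1.5 times the autosomal median. This was 59.2% of them, against a background of 29.0% of bins on the other autosomes. Only 86 retained bins lay below the median. The coefficient of variation between its bins beyond counting was 0.526, at the low end of the other autosomes, which ran from 0.526 on chromosome 2 to 0.721 on chromosome 11. The variance-to-mean ratio of its bins was 96.6, the 9th highest of the 20 autosomes.

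Repeated tags made up 14.5% of the tags on chromosome 12 (Clopper-Pearson 95% interval 14.4% to 14.7%) and 10.7% on the other autosomes together (10.64% to 10.69%). The nearest chromosomes were 20, 10 and 19, at 13.04%, 12.9% and 12.7%, and the lowest was chromosome 2 at 8.60%. Tags placed at random within their own strand and 10 kb bin would repeat in 0.155% of cases on chromosome 12. Most repeated tags stood at positions with 2 tags, 70.5% of them on chromosome 12 and 73.7% elsewhere. Positions with exactly 2 tags were 11.96% of occupied positions, 1.36 times the 8.80% on the other autosomes. Positions with 3 tags were 1.91% against 1.19%, and those with 5 or more were 0.0708% against 0.0417%. No position of the chromosome held more than 7 tags, whereas chromosome 13 reached 20. The repeated share was 14.6% among plus-strand tags and 14.5% among minus-strand tags.

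**Figure D1:**
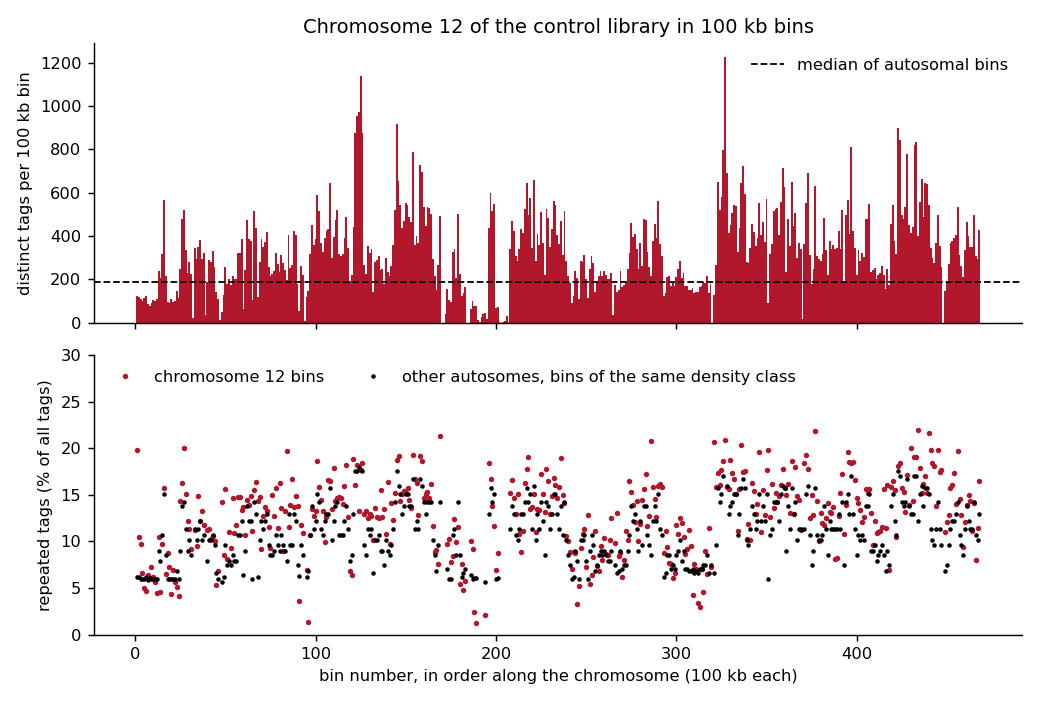
Upper panel, distinct tags in each of the 468 bins of 100 kb, in order along the chromosome, with the autosomal median of 188 as a dashed line. Lower panel, the repeated share of each retained bin (red, % of all tags) and that of bins of the other autosomes in the same class of density (black). Most bins rise above the dashed line, and the red points lie above the black ones in 349 of 442 bins.

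Density and the repeated share moved together along the chromosome. From 1 to 5000000 the median bin held 190 distinct tags, or 1.01 times the autosomal median, and the repeated share was 11.6%. The chromosome opened with a flat, sparse run, in which the 12 bins from 1 to 1200000 held between 77 and 125 distinct tags. The bin that began at position 1 stood apart within it, with 125 distinct tags and 31 repeated ones, a share of 19.9%. From 5000001 to 10000000 the median was 265 and the share 13.1%.

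The next stretch was among the densest. From 10000001 to 15000000 the median bin held 361.5 distinct tags, 1.92 times the autosomal median, and 15.3% of its tags were repeated. It contained 4 of the 5 bins with the most distinct tags on the chromosome. Of these, 3 were adjacent. The bin at 12200001 to 12300000 held 955 distinct tags (Poisson 95% interval 895 to 1018), the bin at 12300001 held 971 (911 to 1034), and the bin at 12400001 held 1139 (1074 to 1207). Their repeated shares were not alike, at 18.2%, 13.3% and 17.7%. The bin at 14400001 to 14500000 held 917 distinct tags.

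Sequence without tags was concentrated in the middle of the chromosome. Of the 24 bins left out for low counts, 16 lay between 15 and 25 Mb, and 7 bins of the chromosome held no tag. The longest run without a tag went from 18291030 to 18560370, or 269341 bp, and another went from 16899965 to 17167657, or 267693 bp. In all, 150 runs of at least 10 kb covered 12.2% of the chromosome, against 9.13% of the other autosomes. Whether these runs are gaps of the assembly was not tested. Retained bins beside these 2 runs were sparse or dense. At the longest run, the bin at 18200001 to 18300000 held 163 distinct tags in 64 of its 1 kb windows. The bin at 18500001 to 18600000, into which the run reached farther, held 63 in 29 windows. At the other, the bin at 16800001 to 16900000 held 492 in 46 windows and that at 17200001 to 17300000 held 157 in 66. Over all retained bins of the stretches that began at 15000001 and 20000001, the medians were 349 and 354 tags and the repeated shares 14.4% and 14.2%. On both sides of the retention limit the counts were close, with 37, 39 and 40 distinct tags in the fullest bins left out and 46, 48 and 54 in the emptiest bins kept.

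From 25000001 to 30000000 density fell back to a median of 237 tags and the repeated share to 12.2%. The bin with the most tags of all lay just beyond, at 32600001 to 32700000, with 1228 distinct tags (1160 to 1299), 6.53 times the autosomal median, and a repeated share of 20.9%. The last stretches remained dense, with medians of 363 tags from 35000001 to 40000000, 376 from 40000001 to 45000000 and 359.5 in the remainder. The stretch from 40000001 to 45000000 had the highest repeated share, 16.2% (15.7% to 16.6%). It held 2 of the 5 bins with the highest shares, 22.0% at 43300001 to 43400000 and 21.7% at 43900001 to 44000000. The lowest shares were in sparse bins, with 1 repeated tag among 78 at 18800001 to 18900000 and 2 among 149 at 9500001 to 9600000. Of the 10 stretches, 7 had a density of at least 1.8 times the autosomal median, against a background of 12.5% of the stretches on the other autosomes. All 10 had a repeated share above the 10.7% of the other autosomes together, against 28.9%.

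Across the 444 retained bins, the repeated share and the number of distinct tags had a Spearman rho of 0.738 and a Pearson r of 0.686. The points are neighbouring bins of a single library that share its depth, so no p is given. In the 111 bins with the fewest tags, 46 to 216 each, 9.25% of tags were repeated (8.83% to 9.69%). In the 111 with the most, 456 to 1228 each, the share was 16.9% (16.6% to 17.1%). The same relation held on the other autosomes, where rho ran from 0.477 on chromosome 18 to 0.780 on chromosome 20.

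To describe how far chromosome 12 lay from the common relation of density and repeated share, which the choice of the chromosome had used, its bins were set against bins of the other 19 autosomes in 2 ways. In bins of the same density, within steps of 10%, the repeated share of chromosome 12 was 14.4% against an expected 12.5%, which is 1.96 percentage points higher. The same difference for each other autosome ran from -1.13 on chromosome 11 to 1.63 on chromosome 20, with an SD of 0.629 over the 19. For chromosome 12 it was 2.15 points in 1 Mb bins and 1.804 when 1 kb windows were matched on their own count and that of their 100 kb bin together. On simulated data the 100 kb match also gave a difference where none was put in, while 1 Mb bins gave nearly none. Chromosome 10, the densest, was on the other side of its match, at -1.003 points. Of 442 matched bins of chromosome 12, 349 (79.0%) had a share above that of their class, against a background of 44.6% on the other autosomes. The median difference over the bins was 1.71 points, with quartiles of 0.419 and 3.55.

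The difference was present in each of 6 broad classes of density, though single bins such as the one at 12300001 lay below their class. Bins with 0.5 to 1 times the autosomal median had a repeated share of 8.70% on chromosome 12 (71 bins, 8.18% to 9.24%) and 6.61% on the other autosomes. At 1 to 1.5 times the median the shares were 11.6% and 8.89%. At 2 to 3 times they were 15.6% (122 bins) and 13.4%, and at 3 times or more they were 17.8% (42 bins) and 16.45%. It was also present in each of the 10 stretches, against a background of 31.4% of stretches on the other autosomes, and the median difference from the density class ran from 0.740 points at the start of the chromosome to 2.94 points in the 18 bins at its end.

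**Figure D2:**
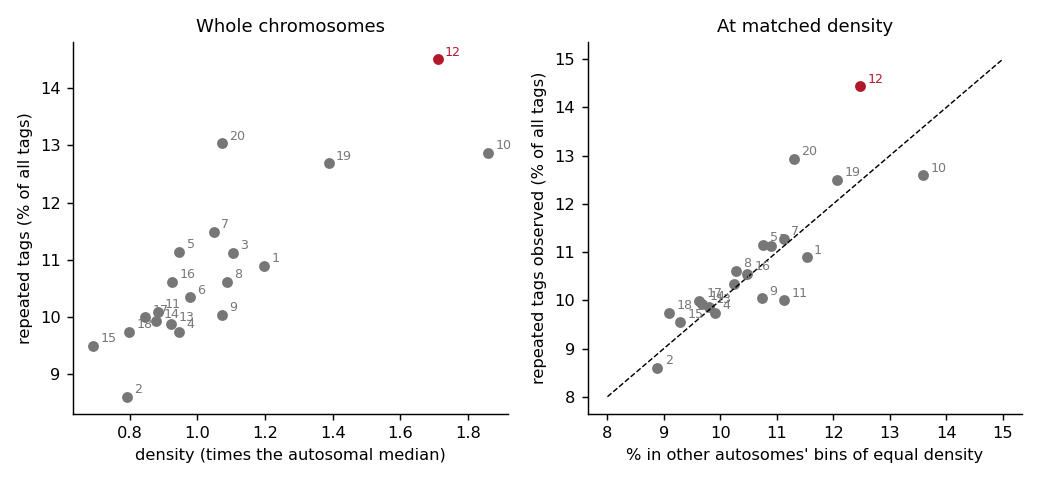
Left, the median density of each autosome (times the autosomal median) against its repeated share (% of all tags). Right, the repeated share observed in the bins of each autosome against that of other autosomes' bins of equal density, with equality as a dashed line. Numbers name the chromosomes. Chromosome 12 (red) has the highest share on the left and lies 1.96 points above the line on the right.

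The match on the repeated share depended on the size of the bins. For 440 bins of 100 kb, density was 0.958 times the median of other autosomes' bins in the same class of 1 percentage point, with quartiles of 0.748 and 1.17. Of these bins, 239 lay below their class, beside 49.7% of bins on the other autosomes, and 112 (25.5%) lay at least 25% below it, which is the background of 25.5% on the other autosomes. In 46 bins of 1 Mb the ratio was 0.844, with quartiles of 0.723 and 0.986, and 36 of them lay below their class, beside 49.4% of 1 Mb bins elsewhere. Bins of 50 kb gave 1.04, on the other side of equality. From 50 kb to 1 Mb, chromosome 12 moved from the 14th lowest to the 3rd lowest of the 20 autosomes. Only chromosomes 15 and 17 were lower at 1 Mb, at 0.648 and 0.827.

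Counting error in the repeated share changed in the same range of sizes. On the other autosomes, a 100 kb bin of median content had a counting SD of 2.18 percentage points in its share, beside a total SD of 4.03 points over bins. In 1 Mb bins these were 0.670 and 3.25 points. A match on a share that carries counting error is weakened by it, but its part in the change with bin size was not tested. On simulated data the 100 kb match gave ratios above the one put in and 1 Mb bins came closer, which limits what 0.958 and the count of 112 bins show. When the 100 kb bins kept their own density but were matched on the share of the 1 Mb region around them, 444 bins gave a ratio of 0.866, close to that of 1 Mb bins, and 274 of them lay below their class, beside 49.4% of bins on the other autosomes. In the same match chromosomes 15, 18 and 17 were lower, at 0.661, 0.787 and 0.807. Chromosome 20 was at 0.901, with 332 of 536 bins below their class, chromosome 19 at 1.01 and chromosome 10 at 1.22.

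**Figure D3:**
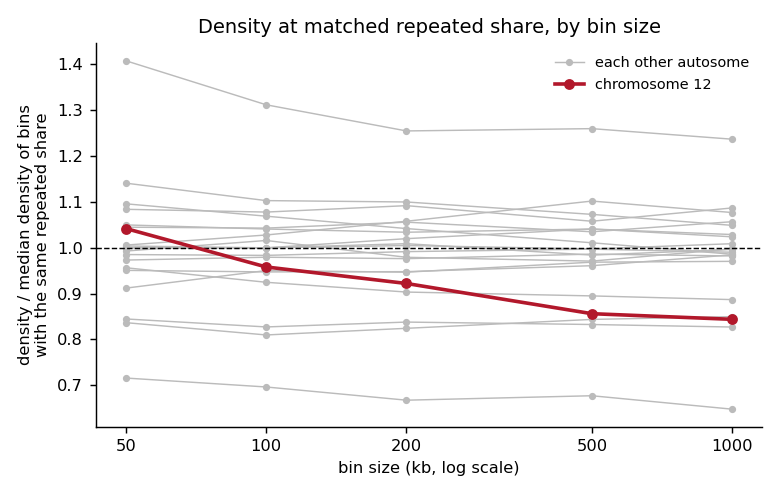
Median ratio of the density of an autosome's bins to the median density of other autosomes' bins in the same class of repeated share, against bin size (kb, log scale). Chromosome 12 (red) falls from 1.04 at 50 kb to 0.844 at 1000 kb, a steeper fall than that of chromosome 10 at the top, from 1.408 to 1.237.

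The bins farthest from their class on the low side held few tags in few occupied windows, and those on the high side were filled. The lowest ratio was 0.119 at 4700001 to 4800000, where 48 distinct tags and 8 repeated ones were found and only 25 of the 100 windows of 1 kb were occupied. The next lowest were 0.146 at 35000001 to 35100000, with 89 distinct tags in 27 windows, and 0.177 at 5900001 to 6000000, with 63 in 11 windows. Runs without a tag reached into both, from 34986700 to 35072761 and from 5910246 to 6026363. The highest ratio was 2.72, in the dense bin at 12300001 to 12400000, which had 99 occupied windows. The next highest was 2.21 at 21300001 to 21400000, with 431 distinct tags and a repeated share of 8.88%. Counting tags per occupied 1 kb window, which sets aside empty sequence, gave a density ratio of 1.49 for the chromosome and 0.986 at matched repeated share. Chromosome 12 had 23.9% of its 46782 windows without a tag, against 30.4% on the other autosomes.

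The excess of repeated tags was then followed down to single windows of 1 kb, and there it was present in windows with as few as 1 distinct tag and in each class up to 19. Chromosome 12 had 6813 windows with just 1 distinct tag, and 8.01% of the tags in them were repeated (7.40% to 8.65%). On the other autosomes the share in such windows was 5.50%, and it varied little between them, from 5.05% on chromosome 13 to 6.08% on chromosome 20. In 513 of these windows of chromosome 12, or 7.53% (6.91% to 8.18%), the place held more than 1 tag, against 5.35% elsewhere, and no place held more than 5. With windows also matched on the density of their 100 kb bin, the expected share was 6.09%. Over the windows that could be matched, the share of chromosome 12 was 1.88 points higher, while the differences of the other autosomes ran from -0.422 to 0.654. Of the 10 stretches, 9 had a share in such windows above the 6.08% of chromosome 20, against a background of 26.2% of the 512 stretches on the other autosomes. Their precision was low, since a stretch held 283 to 976 such windows. The highest was 10.7% from 10000001 to 15000000 (8.50% to 13.2%), the start of the chromosome was at 6.15% (4.77% to 7.79%), and the exception was 5.65% from 30000001 to 35000000 (4.24% to 7.37%).

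In windows with 2 distinct tags the repeated share was 9.30% on chromosome 12 and 6.32% on the other autosomes, and with 3 it was 10.3% and 7.20%. With 4 or 5 they were 12.3% and 9.01%, the widest gap of the classes in which chromosome 12 was higher. From 6 distinct tags upward the distance narrowed. With 9 to 12 distinct tags the shares were 18.2% and 16.6%, and with 20 to 31 they were 19.5% (18.7% to 20.3%) and 19.3% (19.1% to 19.5%), which differed by less than counting error. Chromosome 12 lay above the highest of the other autosomes in each class up to 19 distinct tags, except that with 6 to 8 chromosome 20 was higher, at 15.3% against 14.9%.

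**Figure D4:**
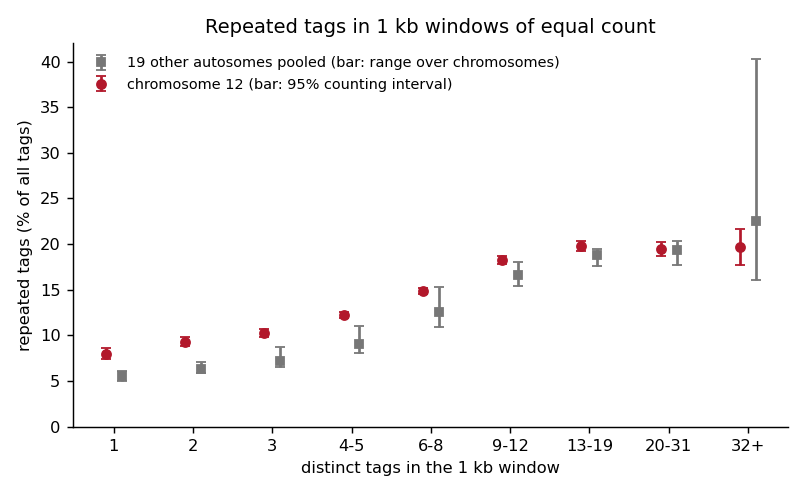
Repeated share (% of all tags) in 1 kb windows grouped by their number of distinct tags. Red points are chromosome 12 with the 95% counting interval, and grey squares are the other 19 autosomes pooled, with bars for the range over chromosomes. The red point is at 8.01% and the grey at 5.50% in windows with 1 tag, and both are near 19% at 20 to 31 tags.

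Strand pairing was examined because a fragment can be read from either end, and both reads of copies of a fragment then lie on opposite strands at its length. The measure was the number of pairs of 5′ ends, 1 on each strand, that lay 130 to 210 bp apart, less the number expected from pairs 400 to 600 bp apart. On chromosome 12 there were 44006 such pairs (Poisson 95% interval 43596 to 44419) where 18418 were expected, an excess of 33.2 per 100 plus-strand distinct tags (32.7 to 33.7). Over the other autosomes together the excess was 20.6, and chromosome 10 alone was higher, at 34.6. The correlation between strands was highest at a shift of 158 bp, with an r of 0.00735 over positions. This was at the lower end of the 158 to 180 bp on the other autosomes. The curve of chromosome 12 was uneven near it, with 0.00624 at 159 bp and 0.00719 at 175 bp, so the place of the maximum is uncertain. At 600 bp the r was 0.00125.

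Pairing rose with density along chromosome 12, from an excess of 9.77 per 100 in the 111 bins with the fewest tags to 46.6 in the 111 with the most. At matched density it was 32.8 against an expected 28.5, a ratio of 1.15. The ratios of the other autosomes ran from 0.881 on chromosome 11 to 1.17 on chromosome 20. The 2 autosomes with the most repeated tags for their density, 12 and 20, also had the most strand pairing for their density. Set against repeated tags themselves, pairing was the 3rd highest of the 20 autosomes. The excess was 0.819 per pair of tags at the same position. This was below 0.987 on chromosome 10 and 0.843 on chromosome 19, and above 0.734 over the other autosomes together. In the 111 sparsest bins it was 0.412, and in the 111 densest 0.951. The bin that began at position 1 had a repeated share of 19.9% and an excess of -2.91 per 100, so its repeated tags came with no excess of partners on the other strand. When 1 Mb bins were matched on the excess in place of the repeated share, density on chromosome 12 was 0.896 times its class.

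**Figure D5:**
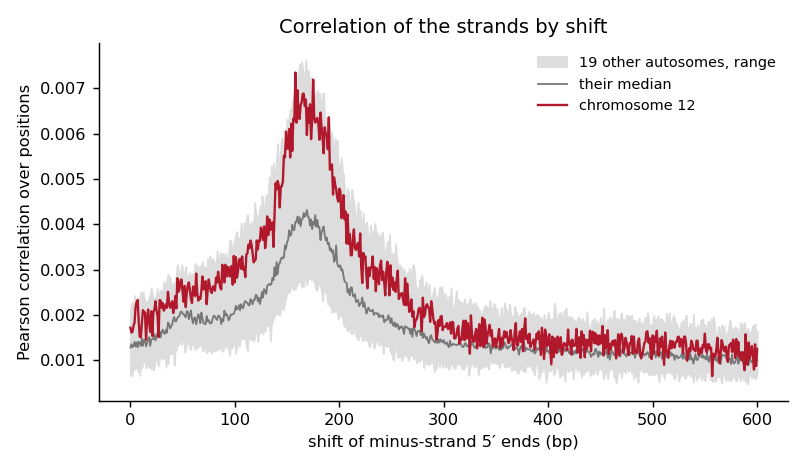
Correlation (Pearson r over positions) between 5′ ends on the plus strand and those on the minus strand, against the shift between them (bp). Chromosome 12 (red) peaks at 158 bp with 0.00735, above the 0.00668 of the highest other autosome at that shift. At 157 and 159 bp it lies below the highest, within the range of the other autosomes (grey band, with their median as a grey line).

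Pile-ups of tags were then counted. A 1 kb window was called tag-rich from 32 distinct tags upward, 10 times the mean of occupied windows. The chromosome had 35 of them at 34 places, or 74.8 per 100 Mb, and chromosomes 10 and 19 had more per length, at 266 and 92.9. They made up 0.0748% of its windows, against a background of 0.0428% on the other autosomes, and held 0.841% of its distinct tags. The stretch from 10000001 to 15000000 held 10 of them, and that from 35000001 to 40000000 held none. Their repeated share was 19.7% (17.7% to 21.7%), below the 22.5% (22.2% to 22.9%) of tag-rich windows on the other autosomes together, but within their range of 16.1% to 40.3%. Without them the share of the chromosome was 14.5%, and its difference at matched density was 1.995 points.

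The window with the most tags, at 8616001 to 8617000, was the narrowest of the top 5. It held 53 distinct tags (Poisson 95% interval 39.7 to 69.3), 25 plus and 28 minus, all with 5′ ends within 477 bp. They were 20.0% of the distinct tags of its 100 kb bin, and 26.4% of the 72 tags in the window were repeated. The other top windows were filled from side to side. The window at 12421001 to 12422000 held 51 distinct tags over 930 bp, and that at 12505001 to 12506000 held 47 over 974 bp, both beside or within the densest bins. At 32390001 to 32391000 there were 46, and at 22154001 to 22155000 there were 45 with a repeated share of 10.0%.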

How the data were processed

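DNA of PCCl3 cells was sequenced in 1 control library. After sonication, gel selection took fragments of about 200 bp, and 18 PCR cycles followed. The study's methods list 2 controls, input DNA and DNA not immunoprecipitated; the label says input, and its sampling point is that of the second. The authors aligned 50 bp reads to rn4 with the MIRO pipeline, allowing 2 mismatches, and deposited a list of tag positions, which carries no score or other normalized value. How reads with several genomic places were treated, and the aligner's version, is not given in the sources used here. Tags were placed at their 5′ ends and counted in bins with Python 3.11.15, numpy 2.4.6, pandas 2.3.3 and scipy 1.17.1. Positions are 1-based. Bins under 25% of the genome-wide median were left out of medians and matches. Classes needed at least 20 bins of other autosomes, and each autosome was matched to the others in the same way. Regions were named by fixed ranks, the 5 at each end of a measure. No gene or sequence was chosen by values. Functions were tested on simulated data. The chromosome and the measures were chosen with earlier results of these data known. With 1 library no p-values were computed, and bins are not replicates. The immunoprecipitate was not analysed here, nor were genes or repeats in rn4.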

Additional observations from a re-analysis of the deposited data

How the results depend on the processing

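No paired analysis was possible because only 1 library was analysed. Of 43 alternatives, 12 stayed within a set range of the value reported, 29 moved and 2 reversed. The range was counting error, or 1.5 times for counts and the percentage of low bins, or the SD over chromosomes for the lag. For the density ratios, it was the counting error of the chromosome's total of distinct tags, not that of a median over bins. The variance-to-mean ratio and rho had no such range, so any change in them counts as moved. The bins of 50, 200 and 500 kb, the match on 1 Mb regions, the match without chromosomes 15, 17 and 18 and the joint match of windows and bins were alternatives added after seeing the data. The density ratio of 1.71 was 1.804 with all tags, 1.68 with minus-strand tags, 1.59 with 1 Mb bins, 1.48 with means, 1.72 with no low bins left out and 1.49 per occupied 1 kb window. The repeated share was 13.25% as a median over bins, and 14.24% of positions held 2 or more tags.

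Density at matched repeated share reversed to 1.03 with density from the plus strand and the share from the minus strand, and to 1.042 with 50 kb bins. In both the share rests on fewer tags, and whether this bears on the reversals was not tested. Elsewhere it was 0.844 with 1 Mb bins, 0.922 with 200 kb, 0.856 with 500 kb, 0.866 by 1 Mb region, 0.967 with classes of 2 points, 0.896 by opposite-strand excess, 0.986 per occupied window, 0.980 without chromosome 10 and 0.9405 without chromosomes 15, 17 and 18. The share at matched density, 1.96 points higher, was 2.15 with 1 Mb bins, 2.20 in 1 kb windows, 1.995 without tag-rich windows and 1.804 by the joint match. The opposite-strand excess was 20.35 at 150 to 190 bp, 47.2 with all tags and 32.5 without tag-rich windows. There were 797 tag-rich windows when the limit was 5 times the mean, 0 when it was 20 times, and 72 with all tags. The variance-to-mean ratio of tags per bin, 96.6, was 15.5 with 10 kb bins and 127.6 with all tags. The rho of 0.738 was 0.847 with 1 Mb bins and 0.695 across strands. The cause of these changes was not tested. At this depth the repeated share of a 100 kb bin of chromosome 12 carried a counting SD of 1.84 points.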

Other observations

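Chromosome 20 shared several values of chromosome 12 without its density. Its median bin was at 1.07 times the autosomal median, yet 13.04% of its tags were repeated, 1.63 points more than in other autosomes' bins of equal density, and its strand pairing was 1.17 times that expected. In 1 kb windows with a single distinct tag its share was 6.08%, against 8.01% on chromosome 12.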
